A study of Homo sapiens with 6 samples.

Results

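The genes described here are 9 genes of the nuclear lamina and of the high mobility group (HMG) families that are linked to cellular senescence: the lamin genes LMNA, LMNB1 and LMNB2, the lamin B receptor gene LBR, the HMG-box genes HMGB1, HMGB2 and HMGB3, and the AT-hook genes HMGA1 and HMGA2. They were chosen by gene symbol from the 58735 genes of the table, and all 9 were among the 12128 genes that averaged 1 FPKM or more over the libraries (fragments per kilobase of gene, scaled to sequencing depth). RNA came from MDA-MB-231, a cell line of a human breast adenocarcinoma. The cells are named SCR and their genotype is given as WT in the labels, and shSCR is the study's name for cells with a non-targeting shRNA. The study does not describe the irradiated libraries, so whether the cells carried that shRNA vector rests on the shared name alone. In 1 group of 3 libraries the cells received 0 Gy, and in the other group of 3 they received 10 Gy from a 137Cs source at 1.7 Gy/min. PolyA libraries were made from RNA taken at 24 h. The sources used here do not say whether the replicates were separate cultures, so p-values measure the spread between these libraries, which may be technical.

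Lamins are the intermediate filament proteins of the meshwork under the inner nuclear membrane. LMNA encodes the A-type lamins A and C, whereas LMNB1 and LMNB2 encode B-type lamins, which stay farnesylated and bound to the membrane. HMGB proteins bend DNA through HMG boxes, and HMGA proteins bind the minor groove of AT-rich DNA through AT-hooks. Loss of lamin B1 and of HMGB2 is widely used as a marker of senescent cells, release of HMGB1 from the nucleus accompanies senescence in many cell types, and HMGA proteins are part of senescence-associated heterochromatin.

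After 10 Gy, HMGB3 RNA was higher and LMNB1 and HMGB2 RNA were lower, while no change of LMNA was detectable. HMGB3 rose from 43.0 ± 2.33 to 65.4 ± 2.43 FPKM (mean ± SD, n = 3 libraries per group), LMNB1 fell from 57.1 ± 1.51 to 42.5 ± 1.11 FPKM, and HMGB2 fell from 113 ± 5.33 to 92.3 ± 3.24 FPKM. By limma with Benjamini-Hochberg adjustment over all 12128 genes, 7 of the 9 genes were called lower and 1 was called higher at an adjusted p under 0.05. Of all tested genes, 35.6% were called, 23.7% lower and 11.9% higher. In bulk RNA, fewer cells of a type and less RNA per cell cannot be told apart. With a change of at least 1.3-fold required as well, 2 of the 9 genes were called, LMNB1 and HMGB3, against 5.77% of all tested genes (2.95% lower and 2.82% higher). The 3 libraries of each dose did not overlap for 8 of the 9 genes, 7 lower and 1 higher, as was the case for 51.9% of all tested genes (32.8% lower and 19.1% higher). The median log2 change of log2(FPKM + 1), on which the limma log2 changes and the 1.3-fold limit are given, was −0.19 over the 9 genes. It was −0.04 over all tested genes.

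**Figure D1:**
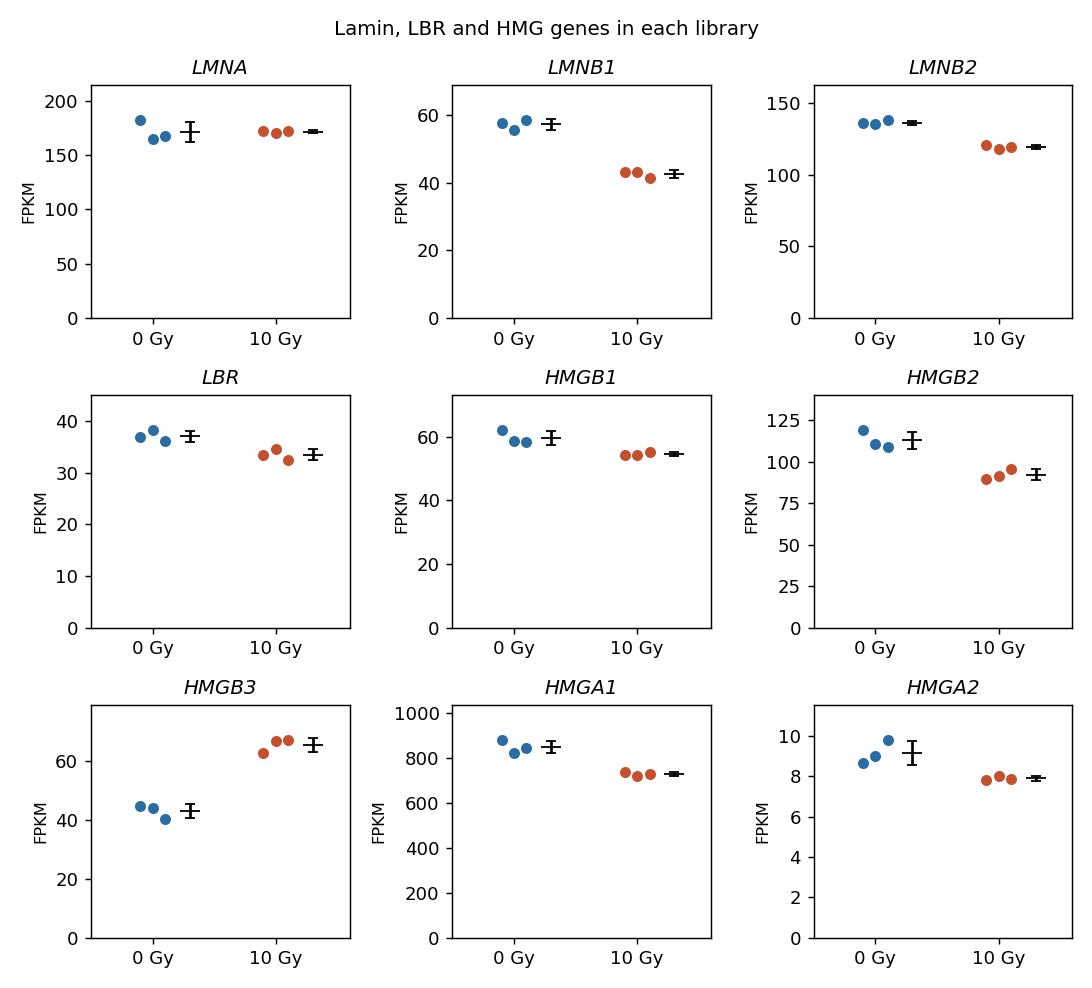
FPKM of the 9 genes in each library, with 0 Gy and 10 Gy side by side. Points are single libraries and bars are group means with SD (n = 3). The groups are apart for every gene except LMNA, and HMGB3 is the gene whose 10 Gy libraries lie above those at 0 Gy.

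The depth was 15643641 to 21928560 recovered reads on genes at 0 Gy and 17570365 to 28861781 at 10 Gy. The deposited values were scaled by more than depth: the divisor behind them was 0.973 to 0.991 times a library's own reads at 0 Gy and 1.03 to 1.04 times at 10 Gy, so it moved with dose. How the balance of calls depends on scaling was therefore computed. As deposited, 1443 tested genes were called higher and 2874 lower. Scaled to the libraries' own reads, an alternative chosen after seeing the data, the counts were 2294 and 1651. By median of ratios they were 1945 and 2047, by upper quartile 2556 and 1444, and by TPM (each library scaled to the same sum) 3113 and 1066. TPM moved the median of all genes by 0.12 on the log2 scale. Markers fixed for a basal-like mesenchymal line were present (VIM, CD44, CAV1, EGFR and AXL, summed to between 779 and 789 FPKM at 0 Gy and between 622 and 641 FPKM at 10 Gy). Of 5 luminal markers, GATA3 was at 3.05 FPKM at 0 Gy and 2.93 at 10 Gy, PGR was listed at 0, and the rest were under 1 FPKM. Fibroblast markers summed to at most 0.0508 FPKM, and CD3E was listed at 0. PTPRC, the pan-leukocyte gene, was at most 0.0071 FPKM, CD14 was between 1.31 and 3.05 FPKM, and PECAM1 was 1.22 FPKM at 0 Gy and 1.94 at 10 Gy. PECAM1 was called higher (log2 change 0.40), against 11.9% of all tested genes. Of the 5 basal-like markers, 4 were called lower, against 23.7% of all tested genes. The part of these markers in the results was not tested.

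The 9 genes spanned a wide range of levels in unirradiated cells. HMGA1 was the highest at 850 ± 27.7 FPKM and ranked 22 of 12128, followed by LMNA at 172 ± 9.15, LMNB2 at 136 ± 1.32 and HMGB2 at 113 ± 5.33 FPKM. HMGB1, at 59.6 ± 2.10 FPKM, and LMNB1, at 57.1 ± 1.51 FPKM, overlapped between libraries and were not separated by their spread. HMGB3 at 43.0 ± 2.33 FPKM and LBR at 37.0 ± 1.06 FPKM came next. HMGA2 was the lowest at 9.15 ± 0.588 FPKM, with rank 5347. At 10 Gy the order of the upper 4 genes was unchanged, and HMGB3 stood above both HMGB1 and LMNB1 with no overlap of libraries. FPKM are per length, so these levels can be set side by side between genes, within the limits of the gene models. The gene length used was 7723 bases for HMGB1 and 2775 for HMGB2, and HMGB1 had more reads (10213 against 7038 in replicate 1 at 0 Gy). The order of these 2 genes and their shares given below thus rest on the lengths.

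LMNB1 (ENSG00000113368, GRCh38 chr5:126776623-126837020, plus strand) encodes lamin B1. Its 3 libraries at 0 Gy were at 57.7, 55.4 and 58.3 FPKM and those at 10 Gy at 43.1, 43.2 and 41.2 FPKM. Every irradiated library was below every control library. The ratio of the group means was 0.744, and the log2 change was −0.42 (SE 0.034, 95% interval −0.50 to −0.34, limma adjusted p = 0.000593). Of all tested genes, 2.22% had a lower log2 change. The values rest on 2868 to 4678 reads per library.

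LMNB2 (ENSG00000176619, chr19:2427638-2456996, minus strand) encodes the other separate B-type lamin. It was at 136, 135 and 138 FPKM at 0 Gy and at 121, 118 and 119 FPKM at 10 Gy, again without overlap. The log2 change was −0.19 (SE 0.029, limma adjusted p = 0.00345), and the call was lost under TPM (limma adjusted p = 0.162). The 3′ end of LMNB2 overlaps the 5′ end of TIMM13, a gene of mitochondrial protein import on the same strand, which fell from 69.4 ± 7.16 to 51.0 ± 0.973 FPKM (log2 change −0.43, limma adjusted p = 0.00429). How reads in the shared bases were assigned is not given in the sources used here, so the LMNB2 value is uncertain to that extent.

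LMNA (ENSG00000160789, chr1:156082573-156140089, plus strand) was at 182, 165 and 168 FPKM at 0 Gy and at 173, 170 and 172 FPKM at 10 Gy. The irradiated libraries lay within the range of the controls. The log2 change was 0.00 (SE 0.043, limma adjusted p = 0.981), with a 95% interval from −0.10 to 0.10. Gene-level values do not separate the transcripts of lamin A and lamin C. Relative to the median of all tested genes, LMNA stood 0.04 to 0.06 higher on the log2 scale over 5 scalings, and under TPM alone it was called (log2 change 0.13, limma adjusted p = 0.0252).

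LBR (ENSG00000143815, chr1:225401502-225428925, minus strand) encodes an inner nuclear membrane protein that binds B-type lamins and heterochromatin and is also a sterol reductase. It was at 36.8, 38.2 and 36.1 FPKM at 0 Gy and at 33.4, 34.5 and 32.5 FPKM at 10 Gy. Each irradiated library was below each control library. The log2 change was −0.14 (SE 0.036, limma adjusted p = 0.0215), and the call was lost under each of the other 4 scalings given above, with limma adjusted p between 0.082 and 0.789. It was also lost without replicate 2 at 0 Gy (limma adjusted p = 0.0549) and without replicate 1 or 3 at 10 Gy (limma adjusted p = 0.072 and 0.0761).

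Ratios between genes of the same library do not depend on its scaling. LMNB1 relative to LMNA was 0.317, 0.336 and 0.348 at 0 Gy and 0.250, 0.254 and 0.240 at 10 Gy, a log2 difference of −0.43. LMNB2 relative to LMNA was 0.746, 0.821 and 0.822 at 0 Gy and 0.701, 0.693 and 0.694 at 10 Gy, a log2 difference of −0.19. Both B-type lamins were thus lower relative to LMNA in every irradiated library, and LMNB1 was also lower relative to LMNB2, by a log2 difference of −0.24. For each of these, the two-sided exact permutation p was 0.1, the smallest that 3 against 3 libraries allow, and 0.14 after adjustment over the 7 ratios tested. LBR relative to LMNA overlapped between doses (log2 difference −0.15, exact permutation p = 0.2, adjusted 0.233). As a share of the summed lamin FPKM, LMNB1 was 15.7% ± 0.341 at 0 Gy and 12.7% ± 0.325 at 10 Gy, LMNB2 was 37.4% ± 1.05 and 35.8% ± 0.192, and LMNA was 47.0% ± 1.31 and 51.4% ± 0.238. The sum of the lamins was 365 ± 9.86 FPKM at 0 Gy and 334 ± 2.73 FPKM at 10 Gy.

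HMGB3 (ENSG00000029993, chrX:150980509-150990775, plus strand), an HMG-box gene best known from embryonic and blood progenitor cells, was the member that rose. It was at 44.8, 43.8 and 40.3 FPKM at 0 Gy and at 62.6, 66.6 and 66.9 FPKM at 10 Gy. Every irradiated library was above every control library by a wide margin. The ratio of the means was 1.52, and the log2 change was 0.59 (SE 0.048, 95% interval 0.48 to 0.71, limma adjusted p = 0.000593). Of all tested genes, 0.998% had a higher log2 change. The 29 rows named as HMGB3 pseudogenes together held 0.318% of the reads of HMGB3 and these rows.

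HMGB2 (ENSG00000164104, chr4:173331695-173335125, minus strand) encodes the HMG-box protein whose level follows proliferation in many cells. It was at 119, 110 and 109 FPKM at 0 Gy and at 89.4, 91.6 and 95.8 FPKM at 10 Gy. The libraries of the doses did not overlap. This is a log2 change of −0.29 (SE 0.045, 95% interval −0.39 to −0.18, limma adjusted p = 0.00359), and 8.13% of tested genes had a lower one.

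HMGB1 (ENSG00000189403, chr13:30456704-30617597, minus strand) encodes the most widely expressed HMGB protein, which acts as an alarm signal when it leaves the cell. It was at 62.0, 58.5 and 58.3 FPKM at 0 Gy and at 54.1, 54.3 and 55.2 FPKM at 10 Gy. The groups did not overlap, but the shift was small. Its log2 change was −0.12 (SE 0.034, limma adjusted p = 0.0268). It was not called under the other 4 scalings given above (limma adjusted p 0.0833 to 0.972), nor without replicate 1, 2 or 3 at 10 Gy (limma adjusted p = 0.0952, 0.0896 and 0.0617). Reads of HMGB1 can be split with its pseudogenes. Of 48 rows so named, 3 had a mean of at least 1 FPKM. HMGB1P6 fell from 76.8 to 67.6 FPKM (limma adjusted p = 0.0326), HMGB1P5 fell from 44.1 to 39.9 FPKM (limma adjusted p = 0.0198), and HMGB1P10 was at 1.87 FPKM at 0 Gy and 2.03 at 10 Gy. All 48 rows held 17.7% of the combined reads. Reads were divided by the divisor behind the deposited values, which moved with dose. On this scale the log2 difference was −0.13 for HMGB1 alone and −0.13 with those rows added. The exact permutation p was 0.1 for each, the smallest possible, and this alternative was chosen after seeing the data. Scaled to own reads, the log2 change of HMGB1 was −0.05 (limma adjusted p = 0.212).

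Within the HMGB family, HMGB3 was higher and HMGB2 lower relative to HMGB1 in every irradiated library. HMGB3 relative to HMGB1 was 0.722, 0.749 and 0.692 at 0 Gy and 1.16, 1.23 and 1.21 at 10 Gy, a log2 difference of 0.73. HMGB2 relative to HMGB1 was 1.92, 1.89 and 1.87 at 0 Gy and 1.65, 1.69 and 1.73 at 10 Gy, a log2 difference of −0.16. Neither ratio overlapped between doses, with an exact permutation p of 0.1 each (0.14 after adjustment over the 7 ratios). HMGB3 made up 19.9% ± 0.598 of the summed HMGB FPKM at 0 Gy and 30.8% ± 0.495 at 10 Gy, while HMGB2 made up 52.4% ± 0.422 and 43.5% ± 0.435 and HMGB1 27.7% ± 0.322 and 25.7% ± 0.479. The summed FPKM were 226, 213 and 208 at 0 Gy and 206, 213 and 218 at 10 Gy, which overlapped.

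**Figure D2:**
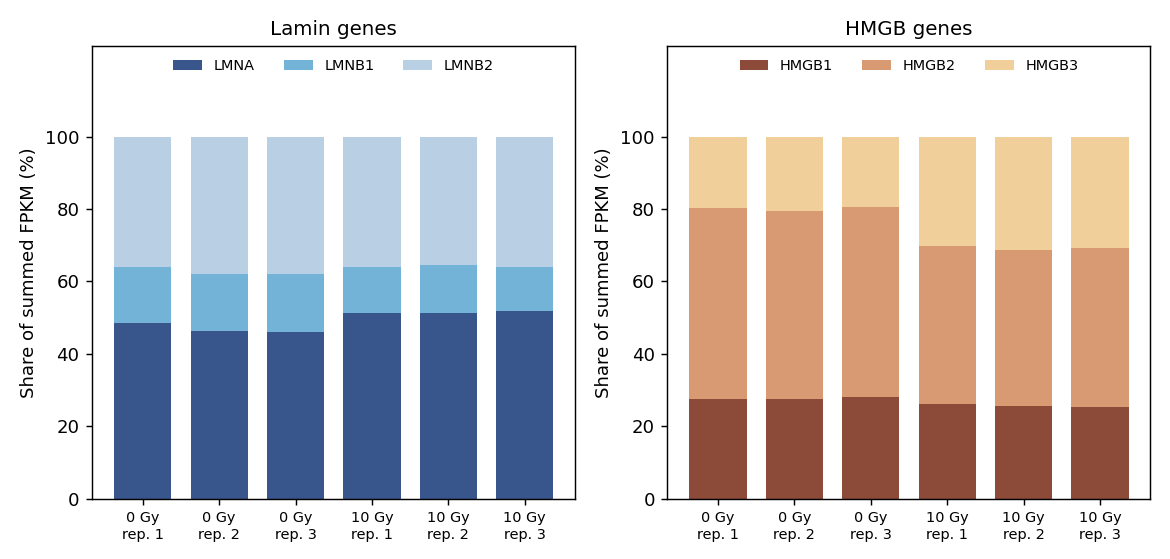
Share in percent of each gene in the summed FPKM of the lamins and of the HMGB genes, by library. HMGB3 takes a larger share in each irradiated library, at 30.4% to 31.3% against 19.4% to 20.6% at 0 Gy, and LMNB1 a smaller one, at 12.4% to 13.0% against 15.4% to 16.0%.

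HMGA1 (ENSG00000137309, chr6:34236873-34246231, plus strand) was at 879, 824 and 846 FPKM at 0 Gy and at 739, 722 and 727 FPKM at 10 Gy. No libraries overlapped. The log2 change was −0.22 (SE 0.045, limma adjusted p = 0.00945), and the call was lost under TPM (limma adjusted p = 0.0698) and when genes of any level were tested (limma adjusted p = 0.117). A microRNA row within it, MIR6835, was at 6.39 FPKM at 0 Gy and 7.34 at 10 Gy, on few reads. HMGA2 (ENSG00000149948, chr12:65824131-65966295, plus strand), which is normally expressed in embryonic cells and returns in many cancers, was at 8.66, 8.99 and 9.80 FPKM at 0 Gy and at 7.81, 8.02 and 7.88 FPKM at 10 Gy. The log2 change was −0.19 (SE 0.048, limma adjusted p = 0.0214) without overlap of libraries. Its call was lost under the other 4 scalings given above (limma adjusted p 0.0657 to 0.341) and without replicate 1, 2 or 3 at 10 Gy (limma adjusted p = 0.0717, 0.0567 and 0.0611). The HMGA2 locus holds other rows. AC107308.1, on the same strand, was at 12.3 FPKM at 0 Gy and 9.55 at 10 Gy (limma adjusted p = 0.0678), while RPSAP52, at 4.42 and 4.14 FPKM, and AC090673.2, at 2.10 and 2.01 FPKM, lie on the opposite strand. Whether reads were counted by strand is not given in the sources used here, so reads of HMGA2 and of these partners cannot be told apart with certainty. HMGA2 relative to HMGA1 overlapped between doses (log2 difference 0.01, exact permutation p = 0.9).

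Across the 5 scalings, LMNB1 (log2 change −0.42 to −0.30), HMGB2 (−0.29 to −0.16) and HMGB3 (0.59 to 0.73) were called each time, LMNB2 (−0.19 to −0.06) and HMGA1 (−0.22 to −0.09) in 4, and LBR (−0.14 to −0.02), HMGB1 (−0.12 to 0.00) and HMGA2 (−0.19 to −0.08) only as deposited. Under TPM the sign of HMGB1 turned. Set against the median of all genes in each scaling, the values were closer together: LMNB1 was −0.38 to −0.36, HMGB2 −0.25 to −0.23, HMGB3 0.63 to 0.65, HMGA1 −0.18 to −0.17, HMGA2 −0.16 to −0.14, LMNB2 −0.15 to −0.13, LBR −0.10 to −0.09 and HMGB1 −0.09 to −0.07.

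**Figure D3:**
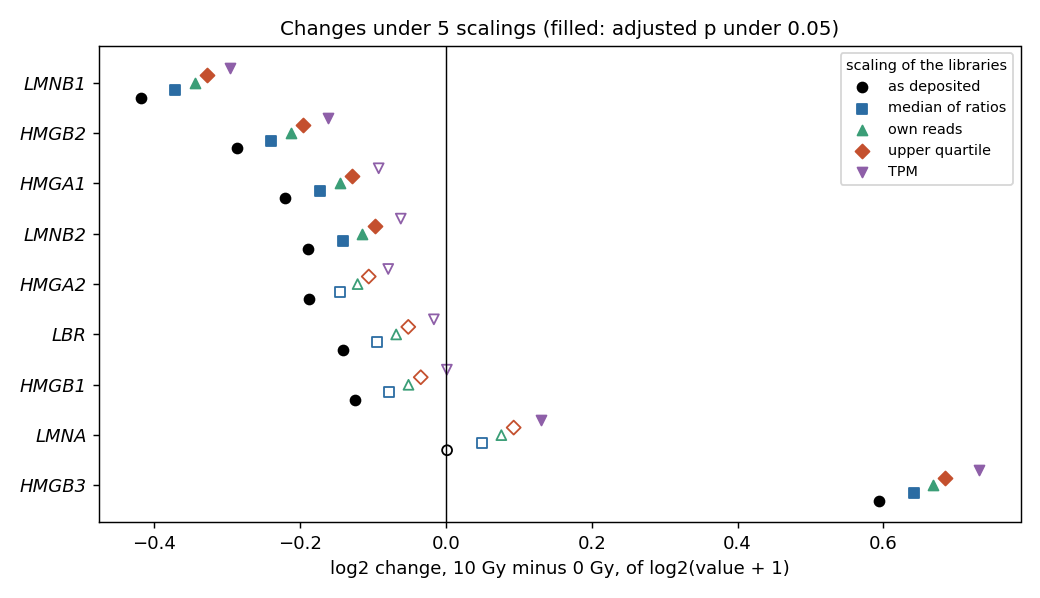
Change after 10 Gy of each of the 9 genes under 5 scalings of the libraries, on the log2(value + 1) scale. Filled symbols have a limma adjusted p under 0.05. LMNB1, HMGB2 and HMGB3 are filled throughout, while LBR, HMGB1 and HMGA2 are filled only for the values as deposited.

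Promoter sequence was set beside the genes that moved apart. RefSeq (GRCh38.p14) gave 14 starts for 7 of the 9 genes, and HMGB2 and HMGA2 had no entry. The 250 bases before each start were searched on both strands for TTTGAA and TTCGAA, forms of the CHR element of cell cycle genes, for CCAAT, and for the E2F-like strings GCGGGAA and GGCGGGA. Printed below are stretches of HMGB3, which rose, of LMNB1, which fell, and of LMNA, for which no change was detectable, with every match to the searched strings in capitals. HMGB3 is given at chrX:150983085-150983285 (250 to 50 bases before a start), LMNB1 at chr5:126776487-126776622 and LMNA at chr1:156082323-156082572, all on the plus strand.
HMGB3: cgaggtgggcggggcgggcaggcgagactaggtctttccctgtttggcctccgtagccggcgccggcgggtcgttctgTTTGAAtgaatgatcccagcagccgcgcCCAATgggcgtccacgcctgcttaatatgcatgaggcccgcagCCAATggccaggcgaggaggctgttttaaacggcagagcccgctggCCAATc
LMNB1: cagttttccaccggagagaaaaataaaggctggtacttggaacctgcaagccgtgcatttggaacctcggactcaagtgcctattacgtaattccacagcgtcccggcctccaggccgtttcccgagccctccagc
LMNA: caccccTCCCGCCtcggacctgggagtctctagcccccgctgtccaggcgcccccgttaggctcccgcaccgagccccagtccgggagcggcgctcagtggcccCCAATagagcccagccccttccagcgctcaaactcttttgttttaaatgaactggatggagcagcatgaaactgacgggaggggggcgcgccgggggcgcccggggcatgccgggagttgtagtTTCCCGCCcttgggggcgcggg
The HMGB3 window held TTTGAA at 172 bases and CCAAT at 144, 101 and 55 bases before the start, and the window at the other HMGB3 start held none of the strings. Of 35116 promoter windows, 13.3% held TTTGAA, 32.0% held CCAAT, 2.93% held CCAAT at least 3 times and 0.370% held both at least 3 CCAAT and TTTGAA. An HMGB1 window also held CCAAT 3 times, at 103, 59 and 28 bases before its start. The HMGB1 and LMNB2 genes, which were called lower, each had a window with TTTGAA, at 246 bases before a start. The LMNB1 stretch, cut to the 136 bases next to its start, held none of the strings, nor did the rest of its 250 bases, and a window at another LMNB1 start held CCAAT on the minus strand at 138 bases. The LMNA window held CCAAT at 146 bases, GGCGGGA on the minus strand at 244 and 21 bases and GCGGGAA on the minus strand at 22 bases, the last 2 overlapping. GGCGGGA was in 13.5% and GCGGGAA in 5.52% of all windows. Gene-level FPKM do not say which start was used, and a match is a description of letters only.

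Genes that work with the lamina were read from the same limma fit, from a list of 27 of which 26 were tested. Of these, 6 were called higher and 8 lower, 53.8% against 35.6% of all tested genes, and the median log2 change was −0.07. ICMT, the methyltransferase that acts on the farnesylated end of prelamin A and B-type lamins, fell from 51.9 to 37.0 FPKM (log2 change −0.48, SE 0.032, limma adjusted p = 0.000438). TMPO, which encodes the lamina-associated polypeptide 2 proteins, fell from 53.1 to 40.1 FPKM (log2 change −0.39, limma adjusted p = 0.000526). BANF1, a DNA-binding protein that links chromatin to LEM-domain proteins, fell from 150 to 119 FPKM (log2 change −0.34, limma adjusted p = 0.00188). In the other direction, CBX5, the gene of heterochromatin protein HP1 alpha, rose from 9.75 to 13.8 FPKM (log2 change 0.46, limma adjusted p = 0.00113). TM7SF2, a sterol reductase related to LBR, rose from 1.86 to 2.64 FPKM (log2 change 0.36, limma adjusted p = 0.0345), and SUN2, which joins the lamina to the cytoskeleton, rose from 13.0 to 15.5 FPKM (log2 change 0.24, limma adjusted p = 0.00272). Under upper quartile scaling 8 were called higher and 6 lower, and under TPM 9 higher and 5 lower. Over all 12128 tested genes these scalings gave 2556 higher and 1444 lower, and 3113 higher and 1066 lower. The call of TM7SF2 was lost in 6 of its 15 alternatives, among them each library left out other than replicate 1 at 0 Gy, with limma adjusted p up to 0.123. The median of the list turned positive under upper quartile, TPM and own-read scaling, at 0.02, 0.06 and 0.00. Without replicate 1 or replicate 2 at 10 Gy, 8 of the genes were called, and without replicate 3 of either dose, 9. Of all tested genes, 2711 and 2651 were called without replicates 1 and 2 at 10 Gy. Leaving out replicate 3 gave 3598 (0 Gy) and 3190 (10 Gy), against 4317 with all libraries.

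A further list held 19 genes: other HMG-box and HMGN genes, and SUPT16H, which belongs to neither group. Of these, 17 were tested, with 2 called higher and 7 lower, 52.9% against 35.6% of all tested genes (median log2 change −0.05). HMGB4 was listed at 0. The FACT histone chaperone genes SSRP1 and SUPT16H fell from 66.3 to 54.5 FPKM (limma adjusted p = 0.00248) and from 53.5 to 44.2 FPKM (limma adjusted p = 0.000886). HMGN2, a nucleosome-binding protein, fell from 191 to 160 FPKM (limma adjusted p = 0.00529), and UBTF, a factor of ribosomal DNA transcription, fell from 24.5 to 20.7 FPKM (limma adjusted p = 0.00261, and 0.0557 under TPM). Without replicate 1 at 10 Gy, 5 of these 17 genes were called, as were 2711 of 12102 genes tested. Upper quartile scaling gave 4 higher and 4 lower, and TPM 5 higher and 3 lower. For all 12128 tested genes the counts were 2556 higher and 1444 lower, and 3113 higher and 1066 lower. The list median was above 0 under upper quartile, TPM and own-read scaling, at 0.03, 0.07 and 0.02.

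HMGA2 RNA is a known target of let-7 microRNAs, and LIN28 proteins block let-7 processing. Of 7 genes of this circuit and the IGF2BP family, 2 were tested and limma called 0, against 35.6% of all tested genes. Before adjustment 1 was under 0.05 (IGF2BP3, log2 change −0.15, limma adjusted p = 0.0828). Without replicate 1 at 0 Gy, 1 was called, as were 3975 of 12185 genes tested. IGF2BP2 was at 20.5 ± 1.44 FPKM at 0 Gy and 18.8 ± 0.0479 at 10 Gy (log2 change −0.12, limma adjusted p = 0.107), and LIN28B was listed at 0 in all libraries. Of 6 genes that encode binding partners of extracellular HMGB1, 4 were tested. THBD, thrombomodulin, was the gene called, 25% against 35.6% of all tested genes. It fell from 18.9 to 14.0 FPKM (log2 change −0.41, limma adjusted p = 0.000586).

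Of 20 senescence markers, 15 were tested, with 2 called higher and 6 lower, 53.3% against 35.6% of all tested genes (median log2 change −0.11, and 0.01 under TPM). The balance depended on scaling, with 5 higher and 5 lower under upper quartile and 6 higher and 4 lower under TPM. The balance of all 12128 tested genes moved too, to 2556 higher and 1444 lower, and to 3113 higher and 1066 lower. CDKN1A, the gene of the kinase inhibitor p21, was at 31.6, 31.9 and 28.8 FPKM at 0 Gy and fell to 22.7, 26.4 and 25.2 FPKM (log2 change −0.30, limma adjusted p = 0.0102, and 0.0529 under TPM). The inhibitor genes CDKN2A and CDKN2B were listed at 0 in all 6 libraries. PLAUR, the urokinase receptor gene, fell from 48.2 to 35.4 FPKM (limma adjusted p = 0.000707), and CXCL8, a secreted chemokine, fell from 66.2 to 52.4 FPKM (limma adjusted p = 0.0166). The call of CXCL8 was lost without replicate 1 or 2 at 10 Gy and with no minimum FPKM, with limma adjusted p up to 0.0729. IL1B, a secreted cytokine, rose from 3.13 to 4.52 FPKM (limma adjusted p = 0.00428), and the lysosomal fucosidase gene FUCA1 rose from 12.2 to 16.3 FPKM (limma adjusted p = 0.00369). GLB1, the gene of senescence-associated beta-galactosidase, was at 18.9 ± 0.329 FPKM at 0 Gy and 18.9 ± 0.0658 at 10 Gy.

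Cell cycle genes moved with dose in the same libraries. All 10 S phase genes of the list were called lower (median log2 change −0.39), against 23.7% of all tested genes. Under upper quartile scaling 9 were called lower (median −0.30) and under TPM 8 (median −0.27), against 1444 and 1066 of 12128 tested genes. Of 10 G2/M genes, 9 were called higher (median 0.33), against 11.9% of all tested genes. Without replicate 1 or replicate 2 at 10 Gy, 8 were called higher, against 876 of 12102 and 846 of 12109 genes tested. MKI67, which was not called, was at 57.1 ± 6.79 FPKM at 0 Gy and 57.5 ± 1.99 at 10 Gy. RRM2, a subunit of ribonucleotide reductase, fell from 35.1 to 21.6 FPKM (limma adjusted p = 0.000227), PCNA, the replication clamp, fell from 170 to 121 FPKM (limma adjusted p = 0.000743), and the helicase subunits MCM5 and MCM6 fell from 25.7 to 18.6 FPKM (limma adjusted p = 0.000586) and from 34.4 to 25.2 FPKM (limma adjusted p = 0.000707). CCNB2 and CCNB1, the B-type cyclins of mitosis, rose from 32.1 to 47.3 FPKM (limma adjusted p = 0.000576) and from 128 to 171 FPKM (limma adjusted p = 0.000593). AURKA, a mitotic kinase, rose from 93.5 to 132 FPKM (limma adjusted p = 0.000346), and CENPF, a kinetochore gene, rose from 35.1 to 47.1 FPKM (limma adjusted p = 0.00156). Summed, the S phase genes were at 594 to 633 FPKM at 0 Gy and 467 to 482 FPKM at 10 Gy, and the G2/M genes at 743 to 757 and 919 to 928 FPKM. The part of these cell cycle markers in the changes of LMNB1, HMGB2 and HMGB3 was not tested.

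**Figure D4:**
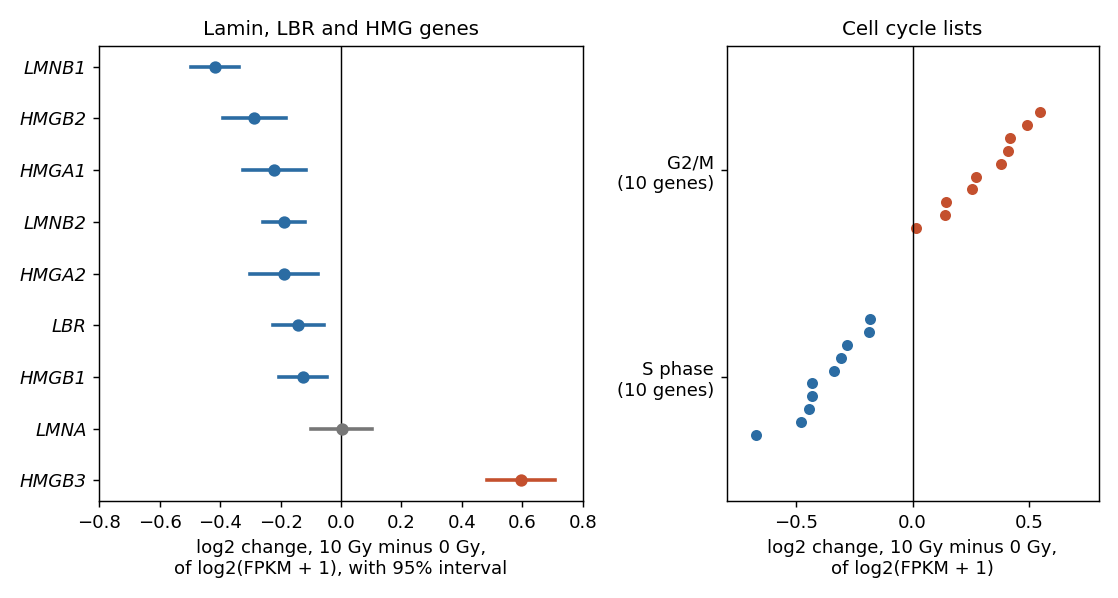
Left, change of each of the 9 genes after 10 Gy on the log2(FPKM + 1) scale, with limma estimates as points, 95% intervals as bars, called genes in blue (lower) or red (higher) and LMNA, not called, in grey; right, the same change for each gene of the S phase and G2/M lists, where a point is 1 gene. HMGB3 lies at 0.59, LMNB1 at −0.42 and HMGB2 at −0.29, the S phase genes all lie below 0, and the G2/M genes, of which MKI67 was not called, lie above it.

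The tested genes whose log2 levels over the 6 libraries were most like LMNB1 were EXOSC8 (Pearson r 0.9992), an exosome subunit that was at 16.5 FPKM at 0 Gy and 12.0 at 10 Gy, then TRMT61A (r 0.9978) and PIGU (r 0.9977). For HMGB2 they were TWNK (r 0.9987), the mitochondrial helicase at 11.6 FPKM at 0 Gy and 10.6 at 10 Gy, then NDUFB2 (r 0.9974) and RER1 (r 0.9972). The 6 points share their 2 dose groups and library scaling, and these genes were the highest of 12128, so the values are descriptions only.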

How the data were processed

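PolyA RNA-sequencing libraries of the MDA-MB-231 line were analysed, 3 at 0 Gy and 3 collected 24 h after 10 Gy, grouped by their labels. The 9 genes and all gene lists were chosen with earlier results of these data known. The authors deposited FPKM per gene, computed by the sequencing provider. Per the labels, HISAT2 and GRCh38 were used, and the counting program, its strand setting and the scaling are not given in the sources used here. Coordinates and gene lengths of the 9 genes equal those of GENCODE 29. Reads were recovered as FPKM times gene length times an implied library depth, and 100% of values above 0 came out whole (tolerance 0.05). These reads served for depth, for reads behind a gene and for alternatives, and a count test was not run.

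Dose groups were compared by limma 3.58.1 (R 4.3.3, two-sided, eBayes with an intensity trend) over 12128 genes averaging 1 FPKM or more. The values tested were log2(FPKM + 1), a pseudocount that understates changes of low genes. A call means a Benjamini-Hochberg adjusted p below 0.05. The procedure was tested on simulated data whose scaling did not move with dose, so that test does not bear on the scaling. Ratios of 2 FPKM values within a library were tested in scipy 1.17.1 with the two-sided exact permutation test. From each list, the up to 4 called genes with the largest absolute change were named (6 for senescence markers, of which 1 is not reported here), with pseudogene and overlapping rows of at least 1 FPKM and the 3 genes most like LMNB1 and HMGB2. Other genes in the text were named after their values were seen. Alternatives were a pseudocount of 0.1, no minimum or a mean of 5 FPKM, upper quartile, median-of-ratios and TPM scaling, no intensity trend, the replicate block, each library left out and, for ratios, log2(FPKM + 1). Scaling to own reads, thinning to equal depth and adding pseudogene reads were chosen after seeing the data. Promoters were read from RefSeq tables on GRCh38.p14. Figures were drawn with matplotlib 3.10.9.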

Additional observations from a re-analysis of the deposited data

How the results depend on the processing

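LMNB1, HMGB2 and HMGB3 kept their direction and were called by limma under all 16 alternatives, with adjusted p of at most 0.00552, 0.0202 and 0.00552. The number of the 9 genes called was 8 as reported. It was 4 without a minimum FPKM and under TPM, and 5 under upper quartile, median-of-ratios and own-read scaling. Under TPM the 4 were 2 higher, LMNA among them, and 2 lower. Of all genes tested, 2912 of 31650 were called without a minimum. Of 12128, 4179 were called under TPM, 4000 under upper quartile, 3992 under median-of-ratios and 3945 under own-read scaling. Between 5 and 8 of the 9 genes were called when 1 library was left out, with 5 without replicate 1 or replicate 3 at 10 Gy. LMNB2 lost its call in 1 alternative, HMGA1 in 2, LBR and HMGA2 in 8 each and HMGB1 in 9. The change of HMGB1 was reversed under TPM (0.0014), and that of LMNA ranged from −0.0258 to 0.0447 with 1 library left out. The cause of these losses was not tested. Without a minimum, 31650 genes entered both the fit and the adjustment.

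Over all genes, 4317 were called as reported and 2651 to 3975 with 1 library left out (2711 and 2651 without replicates 1 and 2 at 10 Gy). Lamina genes called were 14 as reported, 8 without a minimum FPKM and 8 to 13 with 1 library left out. For the list of other HMG genes with SUPT16H the latter range was 5 to 9, and for the let-7 and IGF2BP genes 0 to 1. HMGB1 binding partners called were 2 under upper quartile, TPM and own-read scaling. The log2 ratio of HMGA2 to HMGA1 was between −0.0530 and 0.0644 with 1 library left out.

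Same-numbered libraries did not deviate together (correlations −0.04, −0.03 and −0.10, against −0.05 to 0.09 for different numbers). With 3 libraries per group, this check cannot decide whether the numbers pair them weakly. With the replicate block, 3503 genes and 7 of the 9 genes were called, and HMGB1 was lost (limma adjusted p = 0.0642). The SE of the log2 changes of the 9 genes was 0.029 to 0.048 with 3 libraries per group, which limits the changes that could be detected.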
